A study of Mus musculus with 40 samples.

Results

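The 9 BXD lines with the most and the 9 with the least Ogn mRNA in the hypothalamus were compared across all other genes. Ogn encodes osteoglycin, a small proteoglycan of connective tissue that fibroblasts of the brain's coverings express. The 18 lines were selected on the measured Ogn level alone, as CPM, which are counts scaled to a library total of 1e6 reads in genes, from 36 BXD lines in a series of 40 libraries. The other 18 BXD lines lie between both groups by the same measure.

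BXD lines are recombinant inbred mice whose founders were C57BL/6J and DBA/2J. Every line was sampled in the basal state with no treatment, and ages and sexes are not given in the sources used here. Each strain gave 1 library, which for a BXD line pooled RNA of 3 to 6 hypothalami. The remaining 4 libraries came from C57BL/6J, DBA/2J and both reciprocal hybrids, B6D2F1 and D2B6F1. Both groups thus hold 9 different genotypes each, not 9 repeats of a condition, and p-values measure a difference against the spread between lines. Whether a line's level would recur in another pool of the same line was not measured.

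The meninges are the membranes around the brain, built of an outer dura, an arachnoid and an inner pia that follows the surface. Their fibroblasts make collagens and proteoglycans, arachnoid barrier cells are joined by cadherin and carry organic ion transporters, and meningeal cells release retinoic acid, bone morphogenetic proteins and insulin-like growth factor 2 towards the brain. The base of the hypothalamus is covered by these membranes.

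Ogn stood at 25.3 CPM in BXD56, 16.5 in BXD101, 15.7 in BXD90, 15.4 in BXD66, 11.8 in BXD75, 11.5 in BXD45, 11.4 in BXD70, 10.7 in BXD73 and 9.78 in BXD65. The 9 low lines were BXD100 with 3.75 CPM, BXD96 with 3.74, BXD97 with 3.71, BXD79 with 3.43, BXD103 with 3.36, BXD87 with 2.38, BXD55 with 2.37, BXD89 with 2.34 and BXD51 with 2.33. Group means were 14.2 ± 4.82 CPM (SD, n = 9) and 3.05 ± 0.670 CPM (SD, n = 9), a ratio of 4.67, and over the 36 lines Ogn spanned 10.9-fold. These values chose the lines and carry no test. The first line outside the high group was BXD49 with 8.94 CPM, and the first outside the low group was BXD84 with 3.76 CPM, so the lower edge parts lines that hardly differ. The 4 parental and hybrid libraries lay between the groups, at 4.43 CPM in C57BL/6J, 6.10 in DBA/2J and 5.09 to 5.64 in the hybrids.

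Slc22a6 encodes an organic anion transporter of arachnoid barrier cells and of the kidney. It measured 4.2 to 9.93 CPM (median 5.71) in the high lines and 0.572 to 2.27 CPM (median 1.21) in the low lines. All 9 high lines lay above all 9 low lines, and they were also the 9 highest of the 36 by Slc22a6, whereas 5 of the 9 low lines were among the 9 lowest. The log2 ratio of high to low, where 1 is a doubling, was 2.21 ± 0.249 with adjusted p = 1.98e-05 by edgeR's quasi-likelihood test with Benjamini-Hochberg adjustment over all genes. Here and below, the error of a log2 ratio or slope is its SE, and a gene is called where its adjusted p is under 0.05. Group means were 6.39 ± 2.10 CPM (SD, n = 9) and 1.33 ± 0.615 CPM (SD, n = 9).

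**Figure D1:**
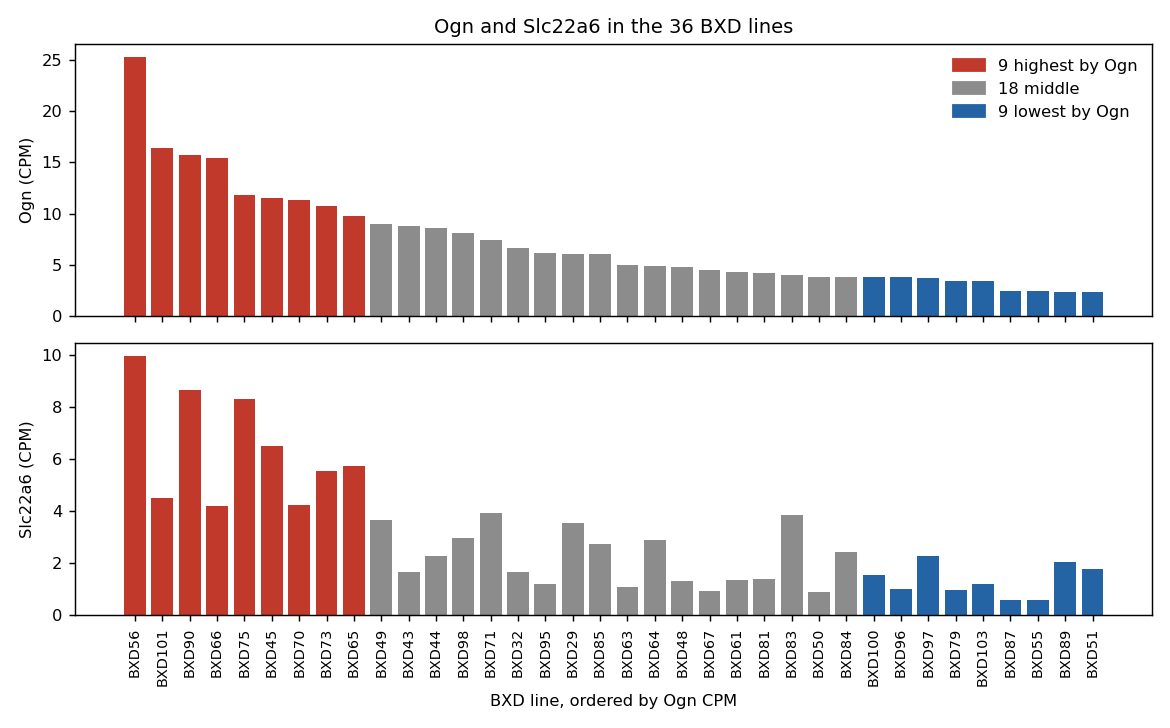
Bars give Ogn (top) and Slc22a6 (bottom) in CPM for each of the 36 BXD lines, ordered by Ogn with the highest at the left, with the 9 highest in red, the 18 middle lines in grey and the 9 lowest in blue. Slc22a6 is at 4.20 CPM or more in every red line and at 2.27 CPM or less in every blue line.

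Sequence upstream of 4 genes is shown, for Ogn, by which the lines were chosen, and for the transporters Slc22a6 and Slc13a4 and the neighbouring proteoglycan gene Omd, which were all higher in the high-Ogn lines without overlap. Each line gives the 250 bases before the RefSeq start on GRCm38.p6, in the direction of the gene. The deposited counts were made on mm9, so these coordinates belong to the sequences only. They are chr13:49607765-49608014 (plus strand) for Ogn, chr13:49582212-49582461 (plus) for Omd, chr19:8617746-8617995 (plus) for Slc22a6 and chr6:35308127-35308376 (minus) for Slc13a4. Capitals mark GGAATG or its reverse complement CATTCC, the core letters that TEAD factors bind.
Ogn: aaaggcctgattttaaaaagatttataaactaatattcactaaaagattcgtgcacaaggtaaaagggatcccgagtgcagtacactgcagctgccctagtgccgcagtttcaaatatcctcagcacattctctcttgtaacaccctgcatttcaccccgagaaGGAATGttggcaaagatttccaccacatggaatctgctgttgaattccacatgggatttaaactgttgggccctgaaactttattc
Omd: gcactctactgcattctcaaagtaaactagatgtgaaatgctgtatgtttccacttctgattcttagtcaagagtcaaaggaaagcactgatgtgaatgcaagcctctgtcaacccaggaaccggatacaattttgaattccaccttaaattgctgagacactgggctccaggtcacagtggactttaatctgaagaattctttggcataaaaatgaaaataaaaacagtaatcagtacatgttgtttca
Slc22a6: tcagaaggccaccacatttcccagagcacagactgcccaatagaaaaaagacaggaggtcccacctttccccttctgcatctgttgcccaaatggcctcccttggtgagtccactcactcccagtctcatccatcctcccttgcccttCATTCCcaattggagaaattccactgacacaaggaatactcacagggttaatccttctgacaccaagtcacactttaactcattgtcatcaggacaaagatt
Slc13a4: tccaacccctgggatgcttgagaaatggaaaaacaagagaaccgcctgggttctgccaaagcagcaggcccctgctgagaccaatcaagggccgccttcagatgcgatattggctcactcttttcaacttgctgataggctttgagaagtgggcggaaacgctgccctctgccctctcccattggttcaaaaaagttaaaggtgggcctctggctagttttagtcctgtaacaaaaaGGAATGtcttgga
GGAATG on either strand begins 86 bases before the start in Ogn, 102 in Slc22a6 and 13 in Slc13a4, is not in the Omd window, and occurs in 12.6% of the 32851 windows of this length in the RefSeq table. It was 1 of 5 motifs searched on both strands, and it was marked after the matches were seen. TATAAA is in the Ogn window and in 12.4% of all, and AGGTCA is in the Omd window and in 14% of all. TGACTCA (4.46% of all) and CCCGCC (32.5% of all) are in none of the 4. No motif overlaps GGAATG in these windows, and a match is a run of letters, not a site shown to be used.

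Over the whole table the difference was narrow and pointed in one direction. By edgeR, 153 of 15480 tested genes (0.988%) had an adjusted p under 0.05, with 150 (0.969%) higher and 3 (0.0194%) lower in the high-Ogn lines. Log2 ratios of the 150 ran from 0.17 to 2.53 with a median of 0.78, where the median of all tested genes was -0.0050. At least 1 log2 unit was reached by 49 of them, 0.5 to 1 by 66 and less by 35. All 9 high lines lay above all 9 low lines in 72 of the 150, and in 73 of all tested genes (0.472%), and no gene had all 9 high lines below (0%). In 144 of the 150 the median of the 18 middle lines lay between the medians of both groups. The 150 were selected for a difference between these groups, and the share among all genes was not computed. BXD56, the line with the most Ogn, was the highest of the 36 lines in 98 of the 150 genes. With Cnp, a myelin gene, as a covariate, 82 genes were higher, the fewest of any setting tried. Without BXD56, 132 genes were higher, each of them among the 150, and 0 were lower, with 962 of the tested genes at an unadjusted p under 0.05.

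The 3 genes lower in the high-Ogn lines were small changes or thinly covered. Mal, which encodes a proteolipid of myelin, measured 207 to 274 CPM (median 215) in the high lines and 237 to 293 CPM (median 278) in the low lines, a log2 ratio of -0.26 ± 0.05704 with adjusted p = 0.02404. Abhd10, a hydrolase gene, measured 25.6 to 35.6 CPM (median 27.5) in the high lines and 26.7 to 42.5 CPM (median 37.6) in the low lines. Its log2 ratio was -0.36 ± 0.0845 with adjusted p = 0.0435. Its values did not shift evenly. Among the high lines only BXD90 was above 28.96 CPM, and among the low lines only BXD103 and BXD89 were below 35.06 CPM. Gckr, the glucokinase regulatory protein gene, averaged under 1 CPM and is named because it completes the 3, with 0.166 to 0.74 CPM (median 0.388) in the high lines and 0.6404 to 1.29 CPM (median 0.792) in the low lines. In none of the 3 did the groups part completely. The call of Mal was lost in 12 and that of Abhd10 in 15 of 18 fits that each left out 1 line, and that of Gckr without BXD56 (-1.004 ± 0.2398, adjusted p = 0.05304).

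Total counts per library were 12.2 to 40.4 M (M, 1e6 counts) in the low lines and 18.1 to 30.1 M in the high lines. The mean total was lower in the high lines by 3.03 M, a difference within the spread of the lines (two-sided exact permutation p = 0.308). The deepest and the shallowest library of the series, BXD51 and BXD55, both belong to the low group, and without them 142 genes were higher, 132 of them among the 150. Hypothalamic peptide transcripts were found in both groups, but equal composition of the dissected tissue was not shown. Markers of adjoining brain regions leaned with the groups, as given below. Among hypothalamic peptides, Pmch, which encodes melanin-concentrating hormone, ran from 67.5 to 161 CPM over the 18 lines, and Trh, the thyrotropin-releasing hormone gene, from 72.8 to 153 CPM. In bulk RNA, more cells of a type and more RNA per cell cannot be told apart, and this holds for every result here.

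Most solute carriers of the meninges were higher in the high-Ogn lines. Of 10 listed and tested transporters, 9 were called higher and 8 had groups that did not overlap, against 0.969% called higher and 0.472% not overlapping among all genes. Counts of every later list stand against the same shares. The median log2 ratio of the 9 members averaging at least 1 CPM was 1.54, where it was -0.0059 over all genes at that level. Slc47a1, a proton-coupled exporter of organic cations, measured 3.41 to 10.5 CPM (median 5.203) in the high lines and 0.327 to 2.15 CPM (median 1.12) in the low lines. Its log2 ratio was 2.43 ± 0.295 with adjusted p = 5.27e-05. Slc22a2, an organic cation transporter, ran from 0 to 0.520 CPM in the low lines and from 0.6 to 2.46 CPM in the high lines, few reads in either.

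Slc13a4 carries sulfate into cells together with sodium. It measured 12.4 to 28.9 CPM (median 16.6) in the high lines and 3.41 to 5.84 CPM (median 4.26) in the low lines, with no value shared between the groups. The log2 ratio was 1.93 ± 0.143 with adjusted p = 3.12e-07, the smallest adjusted p of all tested genes. Both transporters of betaine and gamma-aminobutyric acid in the list were higher too. Slc6a12 had 3.03 to 7.75 CPM (median 5.08) in the high and 0.882 to 2.47 CPM (median 1.33) in the low lines (log2 ratio 1.87 ± 0.2298, adjusted p = 4.63e-05), and Slc6a13 had 10.2 to 27.2 CPM (median 15.9) and 3.76 to 7.58 CPM (median 5.62) (log2 ratio 1.54 ± 0.156, adjusted p = 6.24e-06). Slc6a20a, a proline transporter, had a log2 ratio of 1.24 ± 0.107. Differences were smaller in Slc22a8, an organic anion transporter that brain endothelium also carries (0.74 ± 0.0971), and in Slc13a3, a dicarboxylate transporter (0.57 ± 0.0813). Slc16a9, of the monocarboxylate transporter family, was the member not called, at 0.31 ± 0.0811 with adjusted p = 0.0832, though it was called without BXD97 (0.35 ± 0.0788, adjusted p = 0.0288).

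Small leucine-rich proteoglycans, the family of Ogn, bind collagen fibrils and set their spacing. Of 14 listed members besides Ogn, 12 were tested and 6 were called higher, 4 of them without overlap. Among all genes 0.969% were called higher and 0.472% did not overlap. The 10 members averaging at least 1 CPM had a median log2 ratio of 0.47. Fmod (fibromodulin) measured 17.02 to 39.9 CPM (median 23.1) in the high lines and 4.55 to 8.52 CPM (median 6.095) in the low lines, with a log2 ratio of 1.94 ± 0.151 and adjusted p = 6e-07. Omd (osteomodulin) was scarce, at 0.831 to 2.24 CPM (median 1.097) in the high lines and 0.245 to 0.669 CPM (median 0.383) in the low lines, and its groups did not overlap either (log2 ratio 1.47 ± 0.224, adjusted p = 0.000414). Dcn (decorin), which fibroblasts of many kinds express, measured 20.1 to 48.2 CPM (median 27.7) in the high lines and 11.5 to 22.05 CPM (median 17.7) in the low lines. The groups of Dcn overlapped, and its log2 ratio was 0.77 ± 0.144 with adjusted p = 0.00659. Bgn (biglycan) had a log2 ratio of 0.64 ± 0.0923, Lum (lumican) of 0.78 ± 0.149 and Podn (podocan) of 0.85 ± 0.167. Prelp had a log2 ratio of 0.31 ± 0.0928 and did not pass (adjusted p = 0.192).

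Ogn lies on chromosome 13 in a row of related genes. Of 9 neighbours tested only Omd was called, with a median log2 ratio of 0.0040 over the 8 that averaged at least 1 CPM. Aspn (asporin), a proteoglycan gene of the same cluster, measured 2.06 to 3.12 CPM (median 2.39) in the high lines and 1.42 to 3.27 CPM (median 2.26) in the low lines, with groups that overlapped almost fully. Its log2 ratio was 0.08 ± 0.127 (adjusted p = 0.974), and that of the matrix gene Ecm2 beside it was 0.16 ± 0.0709 (adjusted p = 0.596). The housekeeping neighbours Nol8, Iars, Ippk and Bicd2, with Cenpp and Fgd3, lay between -0.07 and 0.08.

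**Figure D2:**
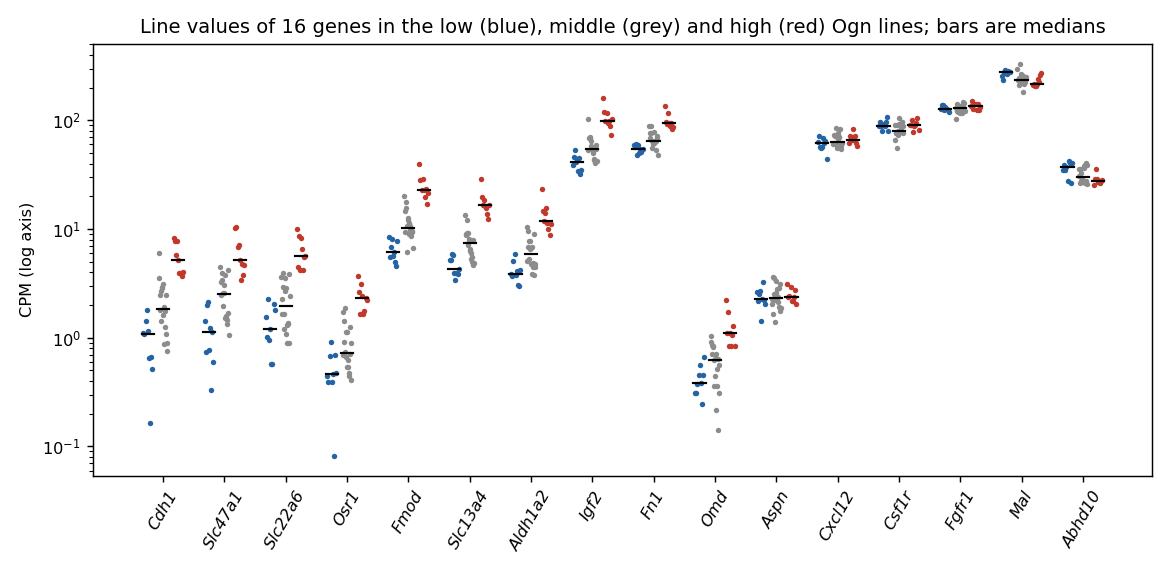
Each point is 1 BXD line, with CPM on a log axis for 16 genes, the low-Ogn lines in blue, the middle lines in grey, the high-Ogn lines in red and bars at the medians. Red and blue points do not overlap from Cdh1 to Omd, whereas Aspn, Cxcl12, Csf1r and Fgfr1 overlap, and Mal and Abhd10 sit slightly lower in red.

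Fewer collagens than transporters were called. Of 20 listed and tested, 4 were called higher and 1 had groups without overlap, and the 19 averaging at least 1 CPM had a median log2 ratio of 0.23. With the lines ranked by Slc22a6 instead, 2 collagens were called. Col3a1, the fibril collagen of soft connective tissue, measured 7.75 to 15.2 CPM (median 10.9) in the high lines and 2.91 to 5.81 CPM (median 4.02) in the low lines (log2 ratio 1.35 ± 0.125, adjusted p = 1.19e-06). Col6a2, of the beaded collagen around cells, had a log2 ratio of 0.46 ± 0.0858, and the basement membrane collagens Col4a6 and Col4a5 had 0.46 ± 0.09799 and 0.26 ± 0.0634. The call of Col4a5 was lost in 15 of the 18 fits without 1 line. The main basement membrane chains, Col4a1 (log2 ratio 0.07 ± 0.0584) and Col4a2 (0.02 ± 0.0821), did not pass, and neither did Col6a1 (0.64 ± 0.238, adjusted p = 0.464).

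Type I collagen turned on a single low line. Col1a2 measured 22.2 to 38.4 CPM (median 28.3) in the high lines and 11.04 to 43.7 CPM (median 15.8) in the low lines, and the highest of the low values belonged to BXD96. With BXD96 its log2 ratio was 0.67 ± 0.215 (adjusted p = 0.294), and without it 0.95 ± 0.106 (adjusted p = 3.34e-05). Col1a1 likewise went from 0.23 ± 0.3104 (adjusted p = 0.963) to 0.73 ± 0.116 (adjusted p = 0.000909), with 29.5 CPM in its highest low line against a median of 7.02 in that group. BXD96 had 3.74 CPM of Ogn, so in that library type I collagen and Ogn went apart.

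Among 20 other matrix genes, 19 were tested and 7 were called higher, 4 of them without overlap. Fn1 encodes fibronectin, an abundant glycoprotein to which cells attach, and measured 83.97 to 135 CPM (median 94.5) in the high lines and 47.9 to 60.98 CPM (median 54.6) in the low lines (log2 ratio 0.84 ± 0.0785, adjusted p = 2.06e-06). Mgp, an inhibitor of calcification, had a log2 ratio of 1.28 ± 0.2296. Nov, a matricellular protein gene, had 1.05 ± 0.129 and Pcolce, which enhances the cutting of procollagen, had 1.04 ± 0.1103. Fbln1 (fibulin-1) and Efemp1, a fibulin too, had 0.77 ± 0.0878 and 0.71 ± 0.138. Lox, which crosslinks collagen, had 1.02 ± 0.235 with adjusted p = 0.03195 and lost its call in 8 of the 18 fits without 1 line. The elastic fibre genes Fbn1 (0.12 ± 0.0796) and Eln (0.33 ± 0.0942) did not pass, although Eln did without BXD45 (0.39 ± 0.0743, adjusted p = 0.00561).

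Growth factors and their binding proteins were called in 7 of 16 listed and tested genes, 6 of them without overlap, and the 15 averaging at least 1 CPM had a median log2 ratio of 0.48. Igf2, an insulin-like growth factor that meninges and choroid plexus supply to the adult brain, measured 73.8 to 159 CPM (median 99.6) in the high lines and 32.1 to 53.8 CPM (median 41.5) in the low lines. Its groups were far apart, with a log2 ratio of 1.36 ± 0.128 and adjusted p = 4.37e-06. Binding proteins of the same growth factors differed among themselves. Igfbp6, which prefers Igf2, had a log2 ratio of 1.70 ± 0.236, Igfbp2 had 1.05 ± 0.124, and Igfbp5, the one of highest mean CPM, had 0.12 ± 0.0611 and did not pass (adjusted p = 0.7). Among bone morphogenetic proteins, Bmp6 (1.07 ± 0.136), Bmp4 (0.57 ± 0.122) and Bmp7 (0.54 ± 0.0753) were called. Wnt6, a secreted ligand, was scarce but without overlap, at 0.9401 to 2.02 CPM (median 1.43) in the high lines and 0.156 to 0.549 CPM (median 0.421) in the low lines. Cxcl12, a chemokine that holds migrating neurons near the meninges, did not pass (0.17 ± 0.0794, adjusted p = 0.664). It measured 58.03 to 83.3 CPM (median 66.6) in the high lines and 44.5 to 72.5 CPM (median 61.3) in the low lines.

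Retinoic acid and prostaglandin genes were called higher in 4 of 10 tested, 3 of them without overlap. Aldh1a2 encodes the enzyme that makes retinoic acid in meningeal fibroblasts. It measured 8.86 to 23.5 CPM (median 11.96) in the high lines and 2.97 to 5.901 CPM (median 3.84) in the low lines (log2 ratio 1.71 ± 0.167, adjusted p = 4.07e-06). Crabp2, which carries retinoic acid to the nucleus, had a log2 ratio of 1.45 ± 0.164, and Cyp1b1, a cytochrome P450 gene, had 0.90 ± 0.165. Cyp26b1, which breaks retinoic acid down and stands in none of the lists, was higher as well, at 0.77 ± 0.0932 with adjusted p = 2.81e-05. Aldh1a1 (0.14 ± 0.0959) and Rdh10 (-0.0028 ± 0.0612), the retinoid enzymes of highest mean CPM in the list, did not pass. Ptgds makes prostaglandin D2 and is also expressed by oligodendrocytes and choroid plexus. It measured 395 to 1038 CPM (median 516) in the high lines and 81.4 to 349 CPM (median 217) in the low lines (log2 ratio 1.49 ± 0.232, adjusted p = 0.00145).

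Transcription factors of meningeal development were called higher in 5 of 10 tested, of 14 listed. The forkhead genes Foxc1 and Foxc2, which meninges need to form, had log2 ratios of 0.72 ± 0.127 and 1.87 ± 0.219. Osr1, a zinc finger gene of mesenchyme, measured 1.66 to 3.73 CPM (median 2.33) in the high lines and 0.0818 to 0.915 CPM (median 0.46) in the low lines (log2 ratio 2.19 ± 0.225, adjusted p = 4.37e-06). The T-box genes Tbx18 and Tbx15 had log2 ratios of 0.92 ± 0.102 and 1.75 ± 0.201. The other 5 were not called. Zic1 and Zic4, which meninges share with septal and thalamic neurons, had -0.26 ± 0.125 (adjusted p = 0.679) and -0.25 ± 0.107 (adjusted p = 0.572), and Prrx1 had 0.04 ± 0.103. Foxd1 (0.57 ± 0.183) did not pass with all lines but did without BXD45 (0.67 ± 0.149, adjusted p = 0.0237).

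Arachnoid barrier cells are epithelium-like and carry E-cadherin. Its gene, Cdh1, had the largest log2 ratio of all genes named by rank, 2.53 ± 0.266 with adjusted p = 9.84e-06, and measured 3.66 to 8.35 CPM (median 5.15) in the high lines and 0.164 to 1.78 CPM (median 1.09) in the low lines. It was 1 of 5 tested members of that list to be called. Dpp4 had 0.57 ± 0.186 (adjusted p = 0.278), Klf5 0.25 ± 0.116 and Krt18 0.13 ± 0.205, and Cldn11, the claudin that arachnoid shares with myelin, had -0.16 ± 0.0653.

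The 8 lists of meningeal genes described so far, leaving out the neighbours, held 111 genes besides Ogn, of which 102 were tested. There 43 were called higher, with 31 without overlap and 94 of 102 ratios above 0. Among all 15480 tested genes, 0.969% were called higher, 0.472% did not overlap and 7221 had ratios above 0. The lists were written with earlier results of these libraries known, so their direction is not independent evidence. Without BXD56, 42 were called. Of the 150 genes, 98 stood in no list at all. By rank these were led by Prg4 (lubricin, 2.08 ± 0.239), the adhesion gene Mpzl2 (1.90 ± 0.224), the lactate receptor gene Gpr81 (1.81 ± 0.217), the sphingosine kinase gene Sphk1 (1.63 ± 0.148), Itih2, of the inter-alpha-trypsin inhibitor family (1.56 ± 0.151), Ranbp3l (1.52 ± 0.132) and Trabd2b (1.51 ± 0.231). Of these only Trabd2b had groups that overlapped. Chosen after their values were seen, the leptin receptor gene Lepr had 0.74 ± 0.0976 (adjusted p = 7.47e-05), with 5.52 to 8.303 CPM (median 6.86) in the high and 2.97 to 5.03 CPM (median 3.85) in the low lines, and the connexin gene Gjb2 had 0.89 ± 0.133 (adjusted p = 0.000402).

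**Figure D3:**
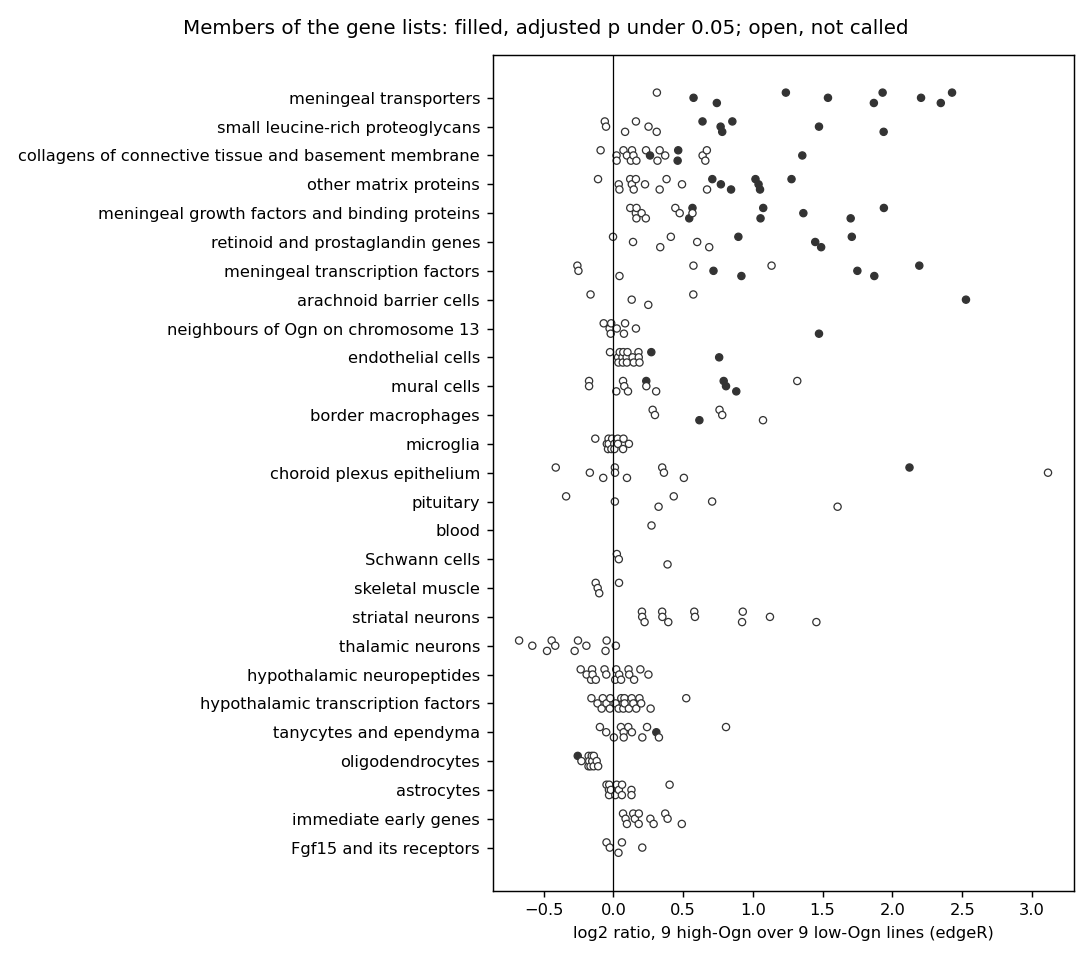
Each point is a tested member of a gene list, placed by its log2 ratio of high-Ogn over low-Ogn lines from edgeR, filled where the adjusted p was under 0.05 and open where it was not. Meningeal transporters lie between 0.31 and 2.43, while microglia and astrocytes cluster near 0. Endothelial genes have a median of 0.097, with 16 of 17 above 0. The open choroid plexus point at the far right is Ttr.

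Vessels run in the same membranes, and several smooth muscle genes were higher while most endothelial genes were not called. Of 13 mural cell genes tested, 4 were called, namely the contractile genes Acta2 (0.81 ± 0.164), Myh11 (0.79 ± 0.127) and Tagln (0.88 ± 0.159), which mark arterial smooth muscle, and the receptor gene Pdgfrb (0.24 ± 0.0497). With 6 lines a side none of the 13 was called, and with Adora2a as a covariate 2 were. The pericyte genes Rgs5 (0.07 ± 0.0862) and Vtn (0.24 ± 0.0758) and the mural receptor gene Notch3 (0.10 ± 0.0611) did not pass. Of 17 endothelial genes tested, 2 were called, Vwf (0.76 ± 0.136, adjusted p = 0.00382), which is strong in larger vessels, and Cdh5 (0.27 ± 0.0496, adjusted p = 0.00361). The groups of Cdh5 did not overlap. Of the 17 ratios, 16 were above 0 and 1 below, with a median of 0.097, where 7221 of all 15480 tested genes were above 0. Their sum ran from 498 to 573 CPM in the high lines and from 471 to 516 CPM in the low lines. The capillary genes Cldn5 (0.03 ± 0.0999), Slc2a1 (0.04 ± 0.0331) and Slco1a4 (0.06 ± 0.0674) and the receptor gene Flt1 (0.14 ± 0.0638) did not pass.

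Border macrophages live in meninges and around vessels. Cd163, their scavenger receptor gene, was called at 0.62 ± 0.136 with adjusted p = 0.0212, 1 of 6 tested of 12 listed, and missed the threshold without BXD100 (0.58 ± 0.138, adjusted p = 0.0512). No gene of the list was called with Ttr or Adora2a as a covariate or with the lines ranked by Slc22a6, and 2 were with 6 lines a side. Mrc1, the mannose receptor gene, measured 2.31 to 6.46 CPM (median 3.29) in the high lines and 1.38 to 3.51 CPM (median 1.99) in the low lines and did not pass with all lines (0.76 ± 0.2001, adjusted p = 0.0893), but did without BXD96 (0.88 ± 0.192, adjusted p = 0.0222) and without BXD70. Stab1 had 0.30 ± 0.103 (adjusted p = 0.353), and Lyve1 stayed under 1 CPM in all 18 lines. Summed over the 12 genes, levels ran from 19.1 to 35.3 CPM in the high lines and from 15.98 to 26.4 CPM in the low lines. Cd74, the invariant chain of class II antigen presentation, was called at 1.08 ± 0.193 (adjusted p = 0.003402), whereas H2-Aa (1.17 ± 0.342), H2-Ab1 (1.18 ± 0.327) and H2-Eb1 (0.94 ± 0.316) did not pass, although H2-Ab1 did without BXD73 (1.30 ± 0.294, adjusted p = 0.0291). None of 14 microglial genes was called, with a median of -0.0014 and examples in Csf1r (-0.01 ± 0.0613) and Cx3cr1 (0.03 ± 0.0716).

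Choroid plexus, the epithelium that secretes cerebrospinal fluid, shares several of these genes. Of 11 tested choroid plexus genes of 15 listed, Kcnj13, a potassium channel gene, was called at 2.12 ± 0.229 (adjusted p = 7.81e-06), with 1.03 to 2.68 CPM (median 1.996) in the high and 0.115 to 0.644 CPM (median 0.429) in the low lines. Ttr, transthyretin, the leading transcript of that epithelium, measured 0.741 to 78.6 CPM (median 1.97) in the high lines and 0.245 to 6.39 CPM (median 0.915) in the low lines. Of the 18 lines only BXD65 and BXD101 were above 50 CPM, and the log2 ratio of 3.12 ± 1.02 did not pass (adjusted p = 0.325). In BXD32, a middle line, Ttr stood at 808 CPM and Kcnj13 at 5.09 CPM, above every line of both groups. Folr1 stayed at or under 1.004 CPM in all 18 lines and Kcne2 at or under 1.36 CPM, while Clic6 (0.01 ± 0.0808) and Prlr (-0.07 ± 0.0611), which neurons also express, did not pass. The sum over the list ran from 111 to 199 CPM in the high lines and from 103 to 125 CPM in the low lines. Without BXD65 and BXD101, 155 genes were higher, 137 of them among the 150, and with Ttr as a covariate 133 were, 129 of them among the 150.

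Other neighbouring tissues gave no calls. For blood this rests on 1 gene, Alas2 (0.27 ± 0.263, adjusted p = 0.921), since the 6 hemoglobin symbols listed were at 0 in every line and were not tested. Pituitary genes were low and none of 6 tested, of 10 listed, passed, with Cga at 0.71 ± 0.349 (adjusted p = 0.692) and Tbx19 at 0.01 ± 0.24. Gh, up to 5.61 CPM in the 18 lines, and Prl, up to 0.915 CPM, were not tested. Of the next lists, 3 of 6 Schwann cell genes and 4 of 9 muscle genes were tested. The Schwann cell genes Drp2 (0.04 ± 0.0399), Ncmap (0.02 ± 0.111) and Prx (0.39 ± 0.204) and the muscle genes Acta1 (-0.11 ± 0.0908), Actn3 (-0.13 ± 0.118) and Mylpf (-0.10 ± 0.158) did not pass.

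Markers of adjoining brain regions and of myelin leaned with the groups without a call, apart from Mal. All 12 striatal genes had ratios above 0 (median 0.49), and their sum ran from 639.7 to 2007 CPM in the high lines against 605 to 782 CPM in the low lines. Adora2a, the adenosine receptor gene of striatal neurons, measured 1.76 to 41.6 CPM (median 9.75) in the high lines, with the highest value in BXD90, and 2.099 to 7.21 CPM (median 3.19) in the low lines (1.45 ± 0.533, adjusted p = 0.458). Penk (0.35 ± 0.193), Pde10a (0.58 ± 0.243) and Adcy5 (0.20 ± 0.0996) had ratios above 0 as well. Of 11 thalamic genes, 10 had ratios below 0 (median -0.28), among them Tcf7l2 (-0.42 ± 0.186), Prkcd (-0.44 ± 0.278), Plekhg1 (-0.25 ± 0.138), Ntng1 (-0.19 ± 0.0932) and Slc17a6 (-0.06 ± 0.0575), with sums of 422 to 690.3 CPM in the high and 533 to 667 CPM in the low lines. All 12 oligodendrocyte genes lay below 0 (median -0.16), as in Mbp (-0.14 ± 0.102) and Cnp (-0.16 ± 0.0556), with sums of 4737 to 6575 CPM in the high and 4871 to 7752 CPM in the low lines. With Adora2a as a covariate 149 genes were higher, 128 of them among the 150, and with Mbp as a covariate 134 were, 131 of them among the 150. With Cnp as a covariate the count fell to 82 genes higher, each of them among the 150, and 0 lower, with 849 genes at an unadjusted p under 0.05. Of the 43 called genes of the meningeal lists, 34 were then called, among them all 9 transporters and all 5 transcription factors. Slc22a6 had a log2 ratio of 2.00 and Slc13a4 of 1.89 in that fit. Collagens went from 4 calls to 1, mural cell genes from 4 to 1, endothelial genes from 2 to 0 and border macrophage genes from 1 to 0, and Dcn, Lum, Mgp, Bmp4, Cyp1b1 and Cd74 were not called.

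Genes of hypothalamic neurons gave no calls. None of 17 tested neuropeptide genes was called (median 0.013), with Pmch at -0.16 ± 0.136, Sst at 0.05 ± 0.113 and Trh at 0.01 ± 0.115. None of 22 transcription factor genes was (median 0.071), with Six3 at 0.02 ± 0.0577, Lhx6 at -0.16 ± 0.207 and Dlx1 at -0.08 ± 0.0409. The astrocyte genes Slc1a2 (0.04 ± 0.0663), Aldoc (-0.03 ± 0.0402) and Slc1a3 (0.02 ± 0.0399) did not pass, nor did any other of 13. Of 13 genes of tanycytes and ependyma, Vim was called (0.31 ± 0.0693, adjusted p = 0.0269), an intermediate filament gene that fibroblasts share, and it lost its call in 7 of the 18 fits without 1 line. Col25a1 (-0.10 ± 0.0402) and Scn7a (0.21 ± 0.0787) did not pass. All 12 immediate early genes had ratios above 0 (median 0.18) and none was called, as in Egr1 (0.26 ± 0.1798), Fos (0.18 ± 0.143) and Arc (0.15 ± 0.1503). The part of the thalamic and immediate early genes in the result was not tested.

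Fgf15, the endocrine growth factor in the series' title, was not called. It measured 0.317 to 1.53 CPM (median 1.19) in the high lines and 0.227 to 1.94 CPM (median 0.899) in the low lines, overlapping throughout, with a log2 ratio of 0.21 ± 0.383 (adjusted p = 0.978). Its receptor genes Fgfr1 (0.06 ± 0.0391), Fgfr2 (-0.03 ± 0.04704) and Fgfr3 (-0.05 ± 0.0434) and the co-receptor gene Klb (0.04 ± 0.166) did not pass, and Fgfr4 was at or under 0.775 CPM in all 18 lines and not tested.

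The 18 middle lines, ranked 10 to 27 of the 36 by Ogn and in neither group, allow the same question over a narrower range of Ogn, from 3.76 to 8.94 CPM. There each gene was regressed on log2 Ogn, and a slope of 1 means that the gene doubles when Ogn doubles. Of 14878 genes tested, 1 (0.00672%) passed by edgeR, Slc13a4, with a slope of 0.89 ± 0.119 and an adjusted p = 0.00342. It ran from 4.71 to 13.6 CPM over these lines. At an unadjusted p under 0.05 there were 1309 genes, and DESeq2 called 18. Of the 150 genes higher in the high lines, 139 were fitted, and 129 of these (92.8%) had a positive slope, where 52.2% of all genes did. Their median slope was 0.280 against 0.0078 over all genes. Positive slopes with an unadjusted p under 0.05 were found in 67 of the 139 and negative ones in 0.

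Slopes of the named genes ranged widely, and of these only that of Slc13a4 passed the adjustment. Cdh1 had a slope of 1.31 ± 0.283, Osr1 of 0.87 ± 0.294, Slc47a1 of 0.81 ± 0.274, Fmod of 0.71 ± 0.171 and Igf2 of 0.61 ± 0.116. Slc22a6 had 0.57 ± 0.345, Slc6a13 0.26 ± 0.193 and Gpr81 0.18 ± 0.218, so for these the relation was not resolved in the middle lines. The striatal genes, whose ratios were above 0 between the groups, had a median slope of -0.12 here, with 2 of 12 positive. The oligodendrocyte genes, below 0 between the groups, had a median of 0.10, with 7 of 12 positive. Thalamic and immediate early genes kept the direction they had between the groups. The thalamic genes had a median slope of -0.11, with 1 of 11 positive, and the immediate early genes one of 0.18, with 12 of 12 positive.

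**Figure D4:**
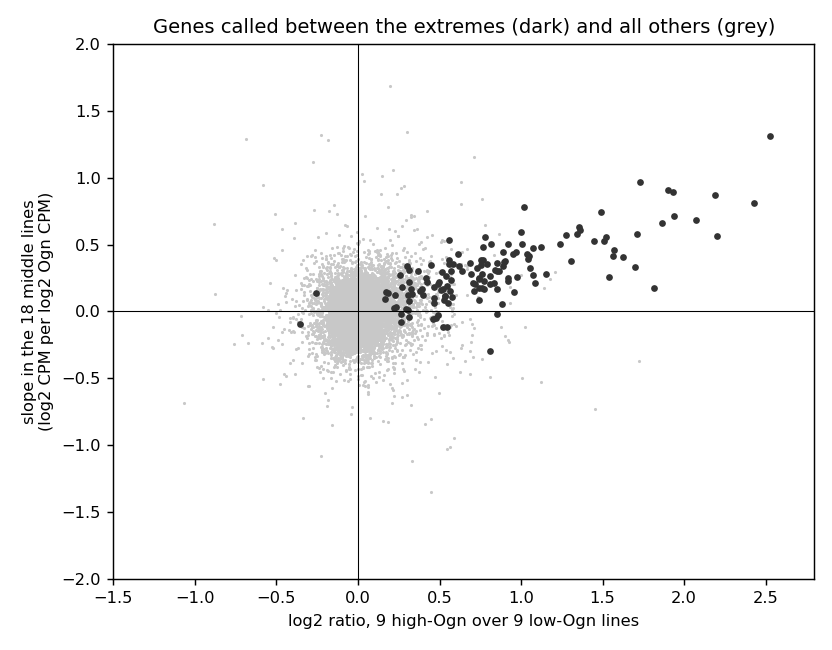
Each point is a gene, with the log2 ratio of 9 high-Ogn over 9 low-Ogn lines on the horizontal axis and its slope on log2 Ogn in the 18 middle lines on the vertical axis, dark for the 141 fitted genes called between the groups and grey for the rest. Dark points to the right lie mostly above 0 (129 of 139), and 5 grey points lie outside the axes.

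Among all genes averaging at least 1 CPM, the 8 whose order over the 18 middle lines was most like that of Ogn were Slc13a4 (Spearman's rho 0.868), Flt1 (0.849), Cp (0.814), Lamc1 (0.798), Mylk (0.779), Myof (0.777), Zc3h8 (0.775) and Bcl6 (0.763). These are descriptions over 18 libraries that share the measure of Ogn. Between the extreme groups, Slc13a4, Cp, the ceruloplasmin gene (0.62 ± 0.0759, adjusted p = 3.27e-05), and Myof, the myoferlin gene (0.56 ± 0.114, adjusted p = 0.01004), were called, while Flt1, Lamc1, a laminin gene (0.13 ± 0.04795), Mylk (0.37 ± 0.0921), Zc3h8 (-0.25 ± 0.138) and Bcl6 (0.15 ± 0.0687) were not. Mylk passed without BXD101 (0.43 ± 0.0845, adjusted p = 0.00898) and without BXD100 or BXD89.

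Single relations of log2 Ogn were tested in the middle lines for 11 measures, by permutation with Benjamini-Hochberg adjustment over the 11. Igf2 followed Ogn with Pearson's r = 0.76 (permutation p = 0.00018, adjusted 0.00198) and Spearman's rho = 0.71 (p = 0.00148, adjusted 0.00543), and r was 0.80 without BXD49 and BXD43, the lines farthest from the median of Ogn. Omd had r = 0.72 (permutation p = 0.00084, adjusted 0.00308), rho = 0.74 (p = 0.00084, adjusted 0.00462) and r = 0.62 without those lines. Mrc1 had r = 0.73 (permutation p = 0.00053, adjusted 0.00292), rho = 0.73 (p = 0.00076, adjusted 0.00462) and r = 0.61 without them. Slc22a6 did not pass, with r = 0.40 (permutation p = 0.1002, adjusted 0.138), rho = 0.36 (p = 0.1399, adjusted 0.192) and r = 0.39 without them.

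Dcn had r = 0.49 (permutation p = 0.0389, adjusted 0.0848), rho = 0.51 (p = 0.0307, adjusted 0.0676) and r = 0.44 without those lines. Col1a2 had r = 0.46 (permutation p = 0.0560, adjusted 0.0879), rho = 0.39 (p = 0.112, adjusted 0.176) and r = 0.48 without them. The neighbour Aspn had r = 0.065 (permutation p = 0.794, adjusted 0.874), rho = 0.11 (p = 0.656, adjusted 0.721) and r = 0.17 without them. Cldn5, of capillaries, went the other way with r = -0.48 (permutation p = 0.0451, adjusted 0.0848), rho = -0.56 (p = 0.0172, adjusted 0.0474) and r = -0.42 without them, and passed by rank only. Ttr, at 808 CPM in the middle line BXD32, had r = 0.12 (permutation p = 0.698, adjusted 0.853), rho = 0.17 (p = 0.494, adjusted 0.604) and r = 0.26 without them but with BXD32. Adora2a had r = -0.47 (permutation p = 0.0462, adjusted 0.0848), rho = -0.45 (p = 0.0619, adjusted 0.113) and r = -0.47 without them. The library total had r = -0.017 (permutation p = 0.948, adjusted 0.948), rho = 0.030 (p = 0.909, adjusted 0.909) and r = 0.12 without them.

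The parental strains stood inside the range of the lines in most of the 150 genes. All 4 parental and hybrid libraries lay between the lowest low line and the highest high line in 144, and their median was below that of the high lines in 149. The 150 were selected for high values in the high lines, and neither share was computed among all genes. In Slc13a4 they had 7.45 CPM in C57BL/6J, 9.24 in DBA/2J, 7.22 in B6D2F1 and 8.31 in D2B6F1. In Fmod they had 11.2 CPM in C57BL/6J, 14.01 in DBA/2J, 11.3 in B6D2F1 and 12 in D2B6F1, and in Cdh1 2.35 CPM in C57BL/6J, 2.46 in DBA/2J, 2.13 in B6D2F1 and 2.85 in D2B6F1. With 1 library per strain these values carry no error of their own.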

How the data were processed

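Hypothalamic RNA was prepared as stranded mRNA libraries and read as single 100-base reads, per the labels' protocols. The submitters' processing notes name TopHat2 2.0.8, HTSeq 0.5.4p3, DESeq and the mouse build mm9, and neither parameters nor an annotation are given in the sources used here. The authors deposited whole-number read counts for 23955 gene symbols, the basis of every value here, of which 2649 were 0 in every library. They also deposited a normalized signal for 15251 genes, counts divided by a size factor per library, used for 1 alternative. Without strand settings, reads of overlapping genes cannot be assigned with certainty.

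CPM are counts divided by the library total, which ran from 12.2 to 40.4 M over the 36 BXD lines. The 9 highest and 9 lowest BXD lines by Ogn were compared by the quasi-likelihood test of edgeR (version 4.0.16, R 4.3.3), after TMM and filterByExpr, with the 18 lines of both groups in the fit and Benjamini-Hochberg adjustment over all genes tested. Ogn itself was given no p. The same test was run for the slope on log2 Ogn in the 18 middle lines. Errors after ± of log2 ratios and slopes are standard errors, and adjusted p-values come from these edgeR fits unless another tool is named. Correlations used 100000 permutations of log2 (CPM + 0.5) with SciPy 1.17.1. The fits were tested on simulated data.

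The lines, markers and gene lists were chosen with earlier results of these data known. Named genes are Ogn and Slc22a6, the 20 largest higher and 12 largest lower log2 ratios among called genes averaging at least 1 CPM, the 3 members of each list with the highest mean CPM, all neighbours of Ogn, the Fgf15 list, and the 8 genes of highest rho in the middle lines. Other names, mostly called members of the lists, were chosen after their values were seen. Some genes that the rule names are not reported here. Alternatives were DESeq2 1.42.0, limma 3.58.1 on the normalized table, other scalings, filters, rankings and group sizes, covariates and leaving out each line. Pairwise correlations of the libraries were 0.973 to 0.997, so none was a copy. No batch is given in the labels, and none was examined. Promoter sequence is from RefSeq (GRCm38.p6), matched by symbol for the 4 genes shown.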

Additional observations from a re-analysis of the deposited data

Results flagged for a closer look

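Of 364 sets of 9 values (log2 of CPM plus 0.5 for each gene named, other than Ogn, and the library total, in each group of lines), 32 had a highest or lowest line whose gap to the next was wider, relative to the range of the 9, than Dixon's 95% limit. Chance flags about 1 in 20 such sets, or 18.2 here, and the genes of a line are not independent. No explanation was tested for any of them. BXD56, a high-Ogn line, stood apart in Bgn (highest of its group, 31.9 CPM, next 23.2 CPM), Cp (highest of its group, 38.97 CPM, next 29.2 CPM), Dcn (highest of its group, 48.2 CPM, next 31.4 CPM), Lox (highest of its group, 3.65 CPM, next 2.05 CPM), Ptgds (highest of its group, 1038 CPM, next 641 CPM) and Tfpi (highest of its group, 8.26 CPM, next 6.22 CPM). BXD90, a high-Ogn line, stood apart in Abhd10 (highest of its group, 35.6 CPM, next 28.96 CPM), Adcy5 (highest of its group, 376 CPM, next 238 CPM) and Dlx1 (lowest of its group, 26.97 CPM, next 30.04 CPM). BXD51, a low-Ogn line, stood apart in Acta2 (highest of its group, 18.3 CPM, next 14.9 CPM), Col4a2 (lowest of its group, 116 CPM, next 143 CPM) and Eya3 (lowest of its group, 40.9 CPM, next 44.5 CPM). BXD55, a low-Ogn line, stood apart in Cga (lowest of its group, 0 CPM, next 1.501 CPM), Col6a2 (lowest of its group, 7.603 CPM, next 11.2 CPM) and Krt18 (lowest of its group, 0.818 CPM, next 1.82 CPM). BXD96, a low-Ogn line, stood apart in Col1a1 (highest of its group, 29.6 CPM, next 7.27 CPM), Col1a2 (highest of its group, 43.7 CPM, next 16.7 CPM) and Trabd2b (highest of its group, 1.25 CPM, next 0.796 CPM). BXD66, a high-Ogn line, stood apart in Cx3cr1 (lowest of its group, 31.8 CPM, next 39.6 CPM), Lamb2 (highest of its group, 61.5 CPM, next 52.7 CPM) and Nid2 (lowest of its group, 3.45 CPM, next 4.32 CPM). BXD101, a high-Ogn line, stood apart in Bicd2 (highest of its group, 132 CPM, next 119.8 CPM) and Lhx6 (lowest of its group, 9.94 CPM, next 23.6 CPM). BXD79, a low-Ogn line, stood apart in Cldn11 (highest of its group, 176 CPM, next 147 CPM) and Tbx18 (lowest of its group, 1.88 CPM, next 2.52 CPM). BXD45, a high-Ogn line, stood apart in Eln (lowest of its group, 11.6 CPM, next 15.8 CPM) and Iars (highest of its group, 90.8 CPM, next 85.7 CPM). BXD103, a low-Ogn line, stood apart in Aebp1 (highest of its group, 20.5 CPM, next 16.9 CPM). BXD65, a high-Ogn line, stood apart in Cldn11 (highest of its group, 149 CPM, next 129 CPM). BXD73, a high-Ogn line, stood apart in H2-Eb1 (lowest of its group, 0.841 CPM, next 2.35 CPM). BXD87, a low-Ogn line, stood apart in Kcnj13 (lowest of its group, 0.115 CPM, next 0.344 CPM). BXD75, a high-Ogn line, stood apart in Klb (lowest of its group, 0.758 CPM, next 1.19 CPM).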

How the results depend on the processing

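Under most alternatives for the grouped comparison, the count of 150 genes higher in the high-Ogn lines stayed within 1.5 times. The exceptions were Cnp as a covariate, which called 82, all higher, and a slope over all 36 lines. The others ran from 119 (6 lines a side, 105 of them among the 150) to 204 (DESeq2, with all 150 among them). Ranking the lines by Slc22a6 gave 128, of which 114 were among the 150. That ranking kept all 9 high lines and 5 of the 9 low lines, so the calls of both fits are not independent. The normalized table with limma gave 153, of which 145 were. A slope over all 36 lines called 239 genes, 235 of them higher. The small count of 3 lower genes was not stable. It was 9 with DESeq2, 5 without a filter on low counts, 23 with 6 lines a side and 1 with Ttr as a covariate. In alternatives chosen after seeing the data it was 8 without BXD65 and BXD101, 0 without BXD51 and BXD55 (1196 genes at an unadjusted p under 0.05), 0 with Cnp as a covariate (849 genes), 3 with Mbp as a covariate and 6 with Adora2a as a covariate. Leaving out 1 line at a time gave 132 to 168 calls, 132 to 164 higher and 0 to 6 lower, the last being 0 without BXD56, 1 without BXD66, BXD70, BXD55 or BXD51, 5 without BXD65 or BXD89 and 6 without BXD103. In the 18 middle lines the count of 1 became 18 with DESeq2, 2 for the slope on Slc22a6 in the middle lines by Slc22a6, and 1 to 2 without 1 line, with 2 without BXD43 or BXD50. The cause of these changes was not tested. No called gene named here changed direction under any alternative. Of 83 named genes that were called, 52 passed in every setting that tested them and 31 lost their call in at least 1, of which 17, Dcn and Lum among them, lost it in 1 or 2. The others were Abhd10 (27 settings), Col4a5 (25), Mal (20), Lox (15), Vim (11), Pros1 (8), Cd163 (7), Col4a6 and Gckr (6 each), Bmp4 and Pdgfrb (5 each), Acta2 and Lamb2 (4 each) and Tagln (3). No paired analysis was possible because each line has 1 library and no number links a high line to a low one. Low counts limit Ogn itself, with 29 reads in BXD55 and 577 in BXD56.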

Other observations

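The genes below were picked from the 98 called higher outside every list, after their values were seen, and no enrichment was tested. Thbd, thrombomodulin, measured 12.02 to 26.01 CPM (median 16.3) in the high-Ogn lines and 7.44 to 9.89 CPM (median 8.89) in the low-Ogn lines, a log2 ratio of 1.003 ± 0.121 (edgeR adjusted p = 3.32e-05). Serpind1 (heparin cofactor), Tfpi (tissue factor pathway inhibitor) and Pros1 (protein S) had 0.90 ± 0.129, 0.56 ± 0.0927 and 0.18 ± 0.0403. The call of Pros1 was lost in 8 of the settings tried, among them without BXD56 (adjusted p = 0.05304) and without BXD89. Serping1, the C1 inhibitor of the complement cascade, measured 11.1 to 21.3 CPM (median 14.7) in the high lines and 6.65 to 9.63 CPM (median 8.92) in the low lines (0.74 ± 0.103). Of 16 tested serpin genes, only Serpind1 and Serping1 were called, and the median log2 ratio of the 16 was 0.14. Among all tested genes 0.969% were called higher.

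Further matrix and developmental genes stood with them. Islr had a log2 ratio of 1.16 ± 0.185, Ctgf, a matricellular protein gene, of 1.12 ± 0.1599, Abi3bp of 1.03 ± 0.183 and Aebp1 of 0.87 ± 0.0792, each with an edgeR adjusted p under 0.05. Of 11 tested laminin genes, 10 had ratios above 0 and 3 were called, Lamc3 (0.53 ± 0.0984), Lama4 (0.30 ± 0.0565) and Lamb2 (0.27 ± 0.0548). Among all 15480 tested genes, 7221 had ratios above 0 and 0.969% were called higher. The nidogen gene Nid1 was called (0.49 ± 0.0797, adjusted p = 0.000876) and Nid2 was not (0.21 ± 0.0916, adjusted p = 0.576). Of 4 tested Eya genes, which encode transcriptional coactivators with phosphatase activity, Eya1 (0.71 ± 0.0961) and Eya2 (0.73 ± 0.0954) were called, and Eya3 (-0.01 ± 0.0379) and Eya4 (0.20 ± 0.108) were not.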
